A study of Mus musculus with 4 samples.

Results

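Conventional dendritic cells of mouse liver tumours were studied, the rare leukocytes that take up tumour material and present it to T cells. A cell counted as one of them by a rule on its own transcripts. It had to show 300 or more genes, with no more than 25% of its UMIs (unique molecular identifiers, which mark single transcripts) mitochondrial, at least 2 of the MHC class II genes H2-Ab1, H2-Aa and Cd74, and at least 1 UMI of Flt3, Xcr1 or Clec9a. It also had to have 0 UMIs of the macrophage gene C1qa, the T cell gene Cd3e and the B cell gene Cd79a. The rule selected 275 of 25715 kept cells: 30 of 6209 in KLF2 replicate 1, 69 of 11103 in KLF2 replicate 2 and 176 of 8403 in vector replicate 2. These 9 genes chose the cells, so their levels are given as a description and carry no test.

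The tumours came from male C57BL/6 mice that were 18 weeks old, 10 weeks after plasmids had been injected under pressure into the tail vein, a route that mainly reaches hepatocytes. In the KLF2 group the plasmids were pT3-EF1α-KLF2, the oncogene plasmids pT3-EF1α-AKT and pT3-EF1α-c-MYC, and the SB100X transposase plasmid. In the vector group pT3 empty vector took the place of the KLF2 plasmid, so both groups carried c-MYC, AKT and SB100X. The EF1α promoter drives the transgenes in the liver cells that took up the plasmids, and the dendritic cells are cells of the host. Each library was made from the tumour tissue of a different mouse. The comparison sets KLF2 replicates 1 and 2 against vector replicate 2. No matrix of vector replicate 1 was analysed here. Values of the KLF2 libraries are given in the order replicate 1, replicate 2 throughout.

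Conventional dendritic cells arise from bone marrow precursors under Flt3 ligand. The type called cDC1 depends on the transcription factors Irf8 and Batf3, carries the chemokine receptor Xcr1 and the dead-cell receptor Clec9a, and presents material from dead cells to CD8 T cells on MHC class I. The type called cDC2 carries Sirpa and, in part of the cells, the lectin Cd209a, and presents mainly to CD4 T cells on MHC class II. Both types can mature, then raise the lymph node homing receptor Ccr7 and the actin bundling protein Fscn1, and migrate. Activated dendritic cells also release Cxcl9 and Cxcl10, chemokines induced by interferon that attract T cells. KLF2 is a transcription factor best known from endothelium under flow and from resting lymphocytes.

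The libraries differed in depth and quality before any cell was selected. They held 95374838 and 125458473 UMIs in the KLF2 libraries, against 45594544 in the vector library. A kept cell had a median of 8912 and 5854 UMIs in the KLF2 libraries, against 3191 in the vector library. Mitochondrial transcripts made up a median of 0.223% and 0.345% of a kept cell's UMIs in the KLF2 libraries, against 11.9% in the vector library. The lowest total of a barcode was 1000 UMIs in each KLF2 library and 522 in the vector library, so barcodes had been selected at different depths. The libraries shared 550 to 1146 barcode names pairwise, and no gated cell shared its barcode name with a gated cell of another library. Klf2 itself was found at 403 and 517 CPM (UMIs scaled to a common total) over all kept cells of the KLF2 libraries, against 637 CPM in the vector library. In cells with Krt8 and Krt18 and without the leukocyte gene Ptprc, it had 339 and 446 CPM in the KLF2 libraries, against 190.0 CPM in the vector library. Whether transcripts of the KLF2 plasmid count as Klf2 is not given in the sources used here. CPM leave out mitochondrial, haemoglobin and a few background genes from the total.

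The gated cells fell into a group that was rich in MHC class II transcripts and a group that was poor in them, and the balance between the groups differed between libraries. With a line at 30 UMIs of H2-Ab1, H2-Aa and Cd74 per 10,000 UMIs of the cell, set after seeing the data, 15 of 30 cells (50%) were MHC-II-rich in KLF2 replicate 1, 43 of 69 (62.3%) in KLF2 replicate 2 and 132 of 176 (75.0%) in vector replicate 2. The rich cells had a median of 367 and 271 such UMIs per 10,000 in the KLF2 libraries, against 178 in the vector library. The poor cells had 0.887 and 1.28 in the KLF2 libraries, against 12.2 in the vector library. Unlike CPM, this measure divides by all UMIs, which lowers the vector values more. In rich cells mitochondrial UMIs were 0.242% and 0.280% with KLF2, against 8.72% with vector. The background gene Gm42418 took 10.4% and 13.4% with KLF2, against 19.8% with vector. Kept cells without Ptprc had medians of 0 and 1.01 per 10,000 in the KLF2 libraries, against 6.70 in the vector library, so the poor cells were close to the level that cells without the leukocyte gene showed. Rich is a range of a measure and not a cell type. The KLF2 libraries together had 1 cell from 20 to 45 per 10,000. In the vector library the cells ran across the line without a gap, with 17 from 10 to 20, 8 from 20 to 30 and 10 from 30 to 45.

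**Figure D1:**
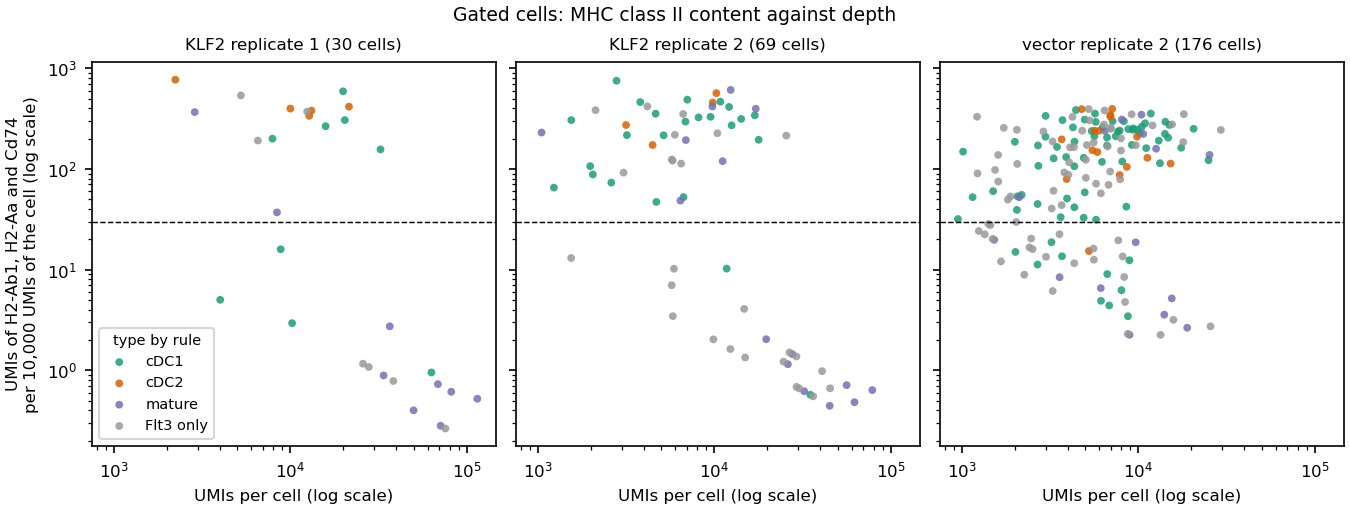
UMIs of the 3 MHC class II genes of the rule per 10,000 UMIs of each gated cell (log scale) against the cell's UMIs (log scale), 1 point per cell, coloured by type, with a dashed line at 30. In the KLF2 libraries the cells under the line reach 115145 and 78750 UMIs and the cells above it at most 32463 and 25582, while in the vector library the limits are 25663 and 29362.

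The MHC-II-poor cells of the KLF2 tumours carried transcripts of tumour epithelium. They were large, with medians of 38382 and 27173 UMIs in the KLF2 libraries, against 5397.5 in the vector library, and they held 78.8% and 69.2% of all UMIs of the gated cells in the KLF2 libraries, against 23.4% in the vector library. A UMI of a keratin marker was present in 12 of 15 and 25 of 26 poor cells of the KLF2 libraries, against 6 of 44 of the vector library. The 8 markers of biliary and tumour epithelium summed to 2538 and 2004 CPM in poor cells of the KLF2 libraries, against 109.8 CPM in the vector library. There Krt19, Krt7, Epcam and Il31ra were at 0, and Ibsp was not among the gene names and has no value. For 7 mesenchymal markers the order was the opposite, with 144 and 287 CPM in poor cells of the KLF2 libraries, against 4741 CPM in the vector library. Likewise 8 endothelial markers had 21.4 and 19.3 CPM in the KLF2 libraries, against 2415 CPM in the vector library. Irf8, the factor cDC1 depend on, had a UMI in 3 of 15 and 7 of 26 poor cells of the KLF2 libraries and in 15 of 44 of the vector library. The markers of the poor cells of the KLF2 libraries go against the label of conventional dendritic cells, and those of the vector library are mixed. How many poor cells are other cells with stray dendritic cell transcripts was not tested.

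The rich cells carried genes of the label that the rule did not read, some of them on few UMIs. Itgax (Cd11c) had 103 and 177 CPM in the KLF2 libraries, against 207 CPM in the vector library. In poor cells Itgax had 0 and 0 CPM with KLF2, against 54.9 CPM with vector. Zbtb46, a factor of the conventional lineage, had 30.2 and 30.1 CPM in the KLF2 libraries, against 31.6 CPM in the vector library. In rich cDC1 Zbtb46 rested on 2 and 6 UMIs with KLF2 and 10 UMIs with vector. Of 8 markers of conventional dendritic cells outside the rule, 7 were detected in every library, and Amica1 was not matched by name and has no value here. A UMI of Irf8 was found in 7 of 15 and 28 of 43 rich cells of the KLF2 libraries, against 84 of 132 of the vector library. Transcripts typical of other tissue cells differed between the groups in rich cells too. Epithelial markers summed to 555 and 1154 CPM in rich cells of the KLF2 libraries, against 60.0 CPM in the vector library. Hepatocyte markers summed to 24.1 and 75.2 CPM in the KLF2 libraries and 475 CPM in the vector library, and endothelial markers to 30.2 and 33.8 CPM in the KLF2 libraries and 409 CPM in the vector library.

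Rich cells also held some transcripts of other leukocytes. Macrophage markers summed to 217 and 417 CPM in the KLF2 libraries and 440.4 CPM in the vector library, T cell markers to 54.3 and 199 CPM in the KLF2 libraries and 219 CPM in the vector library, and B and plasma cell markers to 145 and 308 CPM in the KLF2 libraries and 327 CPM in the vector library. Monocyte markers summed to 2486 and 1617 CPM in the KLF2 libraries and 1369 CPM in the vector library. The highest of them in rich cDC1 was Plac8, with 2580 and 841 CPM with KLF2, against 998 CPM with vector. Ccr2, which dendritic cells also use, had 263 and 250 CPM with KLF2, against 197 CPM with vector, in rich cDC1. Neutrophil markers summed to 54.3 and 26.3 CPM in the KLF2 libraries and 78.9 CPM in the vector library, NK and innate lymphoid markers to 60.3 and 82.7 CPM in the KLF2 libraries and 177 CPM in the vector library, and mesenchymal markers to 139 and 94.0 CPM in the KLF2 libraries and 205 CPM in the vector library. Mast cell and basophil markers reached 12.1 and 26.3 CPM in the KLF2 libraries and 3.16 CPM in the vector library, and erythroid markers 0 and 26.3 CPM in the KLF2 libraries and 23.7 CPM in the vector library. The mast cell and basophil markers Mcpt8, Ms4a2 and Fcer1a were not among the gene names of the vector library. Plasmacytoid markers are described with the types.

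Cells that passed the rule were a smaller share of the kept cells of the KLF2 libraries, and about the same share of those with a Ptprc UMI. Gated cells made up 0.483% (95% Wilson interval 0.339 to 0.689%) and 0.621% (0.491 to 0.786%) of kept cells in the KLF2 libraries, against 2.09% (1.81 to 2.42%) in the vector library. Rich cells made up 0.242% (0.146 to 0.398%) and 0.387% (0.288 to 0.521%) in the KLF2 libraries, against 1.57% (1.33 to 1.86%) in the vector library. The intervals of the KLF2 libraries did not reach that of the vector library, but they cover counting error only, and no test of the shares was run. Class II transcripts, which the rule reads, were also higher in T cells of the vector library. T cells had medians of 0 and 0.991 UMIs of the 3 class II genes per 10,000 with KLF2, against 4.41 with vector. How far such class II levels moved the shares was not tested. Among kept cells with a Ptprc UMI, gated cells made up 1.96% (1.17 to 3.26%) and 2.33% (1.71 to 3.15%) in the KLF2 libraries, against 2.33% (1.86 to 2.91%) in the vector library. Rich cells made up 1.54% (0.861 to 2.73%) and 1.98% (1.42 to 2.75%) of these leukocytes in the KLF2 libraries, against 1.96% (1.53 to 2.50%) in the vector library. Those intervals overlapped in all 3 libraries. A Ptprc UMI was itself found in only 11 of 15 and 34 of 43 rich cells of the KLF2 libraries and 63 of 132 of the vector library, so the shares among leukocytes count the cells in which it was seen.

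**Figure D2:**
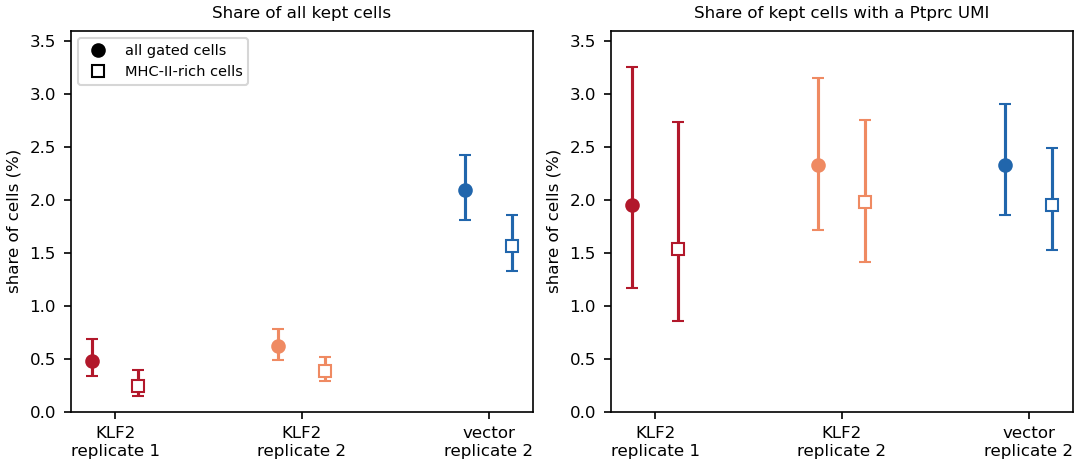
Share of gated cells (filled circles) and of MHC-II-rich cells (open squares) among all kept cells (left) and among kept cells with a Ptprc UMI (right), in percent, with Wilson 95% intervals that cover counting error. On the left the KLF2 libraries lie at 0.242 to 0.621% and the vector library at 1.57 and 2.09%, while on the right all 6 shares lie between 1.54 and 2.33%.

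The share of kept cells kept its order when every cell was thinned to the same total, which includes more mitochondrial UMIs in the vector library. After each cell had been thinned to 1000 UMIs, 8 of 6209 and 21 of 11103 cells of the KLF2 libraries passed the rule (0.129% and 0.189%), against 61 of 8133 (0.750%) of the vector library, from which 270 cells under 1000 UMIs were left out. Most cells that passed after thinning were MHC-II-rich, 8 of 8 and 20 of 21 in the KLF2 libraries and 58 of 61 in the vector library. Of those that passed, 7 and 17 in the KLF2 libraries and 49 in the vector library were also gated without thinning. When cells with any UMI of 11 genes of other cell types were left out, 16 and 42 gated cells remained in the KLF2 libraries (0.258% and 0.378% of kept cells), against 40 (0.476%) in the vector library, a smaller gap in the same direction. The 11 genes include Alb and Cdh5 and no keratin or Il31ra. In rich cells hepatocyte and endothelial markers were highest in the vector library and epithelial markers in the KLF2 libraries, so this filter is not even between the groups. The rule sits at the edge of detection. It was met with exactly 1 UMI of Flt3, Xcr1 or Clec9a by 22 and 42 gated cells of the KLF2 libraries and 108 of the vector library, while 562 and 1647 cells of the KLF2 libraries and 2132 of the vector library met every other part with none. Of the gated cells 11 and 23 in the KLF2 libraries and 31 in the vector library had exactly 2 of the 3 MHC class II genes, and 6 and 22 cells in the KLF2 libraries and 19 in the vector library were outside with 1. C1qa, Cd3e or Cd79a kept out 20 and 90 cells of the KLF2 libraries and 130 of the vector library. In T cells a UMI of Flt3 was seen in 0 of 61 and 1 of 166 cells (0.602%) of the KLF2 libraries, at medians of 7009 and 4849 UMIs. In the vector library it was seen in 31 of 1801 T cells (1.72%), at a median of 4536. Whether free RNA or doublets gave these UMIs was not tested. The 0 of 61 allows a share of up to 4.92%.

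Cells were typed by reading 3 rules in turn: mature cells had at least 2 UMIs over Ccr7 and Fscn1, cDC1 at least 1 UMI of Xcr1 or Clec9a, cDC2 at least 1 UMI of Cd209a, and the rest had Flt3 alone. Among rich cells, cDC1 numbered 5 and 22 in the KLF2 libraries (33.3% and 51.2%), against 63 (47.7%) in the vector library. Rich cDC2 numbered 5 and 4 in the KLF2 libraries (33.3% and 9.30%), against 15 (11.4%) in the vector library. Rich mature cells numbered 2 and 7 (13.3% and 16.3%) in the KLF2 libraries, against 7 (5.30%) in the vector library. The Wilson intervals of the mature share were 3.74 to 37.9% and 8.12 to 30.0% in the KLF2 libraries and 2.59 to 10.5% in the vector library, so they overlapped. The 3 and 10 rich cells of the KLF2 libraries and 47 of the vector library with Flt3 alone include any cDC1 or cDC2 whose own gene was missed.

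Counted over all gated cells instead, mature cells appeared more common in KLF2 tumours, at 9 of 30 (30.0%) and 15 of 69 (21.7%), against 15 of 176 (8.52%) in the vector library. Of the mature cells, 7 of 9 and 8 of 15 were MHC-II-poor in the KLF2 libraries, against 8 of 15 in the vector library. Ccr7 was seen in 4 of the 7 and 2 of the 8 poor mature cells of the KLF2 libraries and in 2 of the 8 of the vector library, while it was seen in every rich mature cell. Fscn1 is also expressed outside dendritic cells: a UMI of it was found in 32.0% and 18.7% of kept cells without Ptprc in the KLF2 libraries, at medians of 8730.5 and 5661 UMIs, against 18.8% in the vector library, at 2738. The part of stray Fscn1 in the mature share of the gate was not tested.

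Several genes typical of a type were highest in rich cells of that type in both groups, but not every list member was. Irf8 had 1352 and 1735 CPM with KLF2, against 1469 CPM with vector, in rich cDC1, and 18.6 and 562 CPM with KLF2, against 170.2 CPM with vector, in rich cDC2. The 562 CPM rests on 4 cells, of which 2 carried genes of plasmacytoid dendritic cells. Naaa, a lysosomal amidase typical of cDC1, had 839 and 1258 CPM with KLF2, against 788 CPM with vector, in rich cDC1, and 168 and 80.2 CPM with KLF2, against 91.7 CPM with vector, in rich cDC2. Rab7b, a GTPase of lysosomal traffic, had 301 and 318 CPM with KLF2, against 323 CPM with vector, in rich cDC1, and was at 0 in rich cDC2 of every library. All 3 were higher in rich cDC1 than in rich cDC2 of the same library, and none of them had a part in typing. In rich cDC2, Itgam (Cd11b) had 112 and 120.3 CPM with KLF2, against 170.2 CPM with vector, and in rich cDC1 0 and 7.58 CPM with KLF2, against 9.69 CPM with vector. Mgl2 of the cDC2 list had 74.5 and 40.1 CPM with KLF2, against 65.5 CPM with vector, in rich cDC2. In rich cDC1 Mgl2 had 0 and 129 CPM with KLF2, against 77.5 CPM with vector. Batf3 of the cDC1 list had 250.5 CPM in rich cDC1 of KLF2 replicate 1 and 261 CPM in its rich cDC2. How many list members kept the order of their type was not counted. Rich mature cells had the chemokine Ccl22 at 1116 and 445 CPM with KLF2, against 895 CPM with vector, and the signalling adaptor Traf1 at 1395 and 309.6 CPM with KLF2, against 1029 CPM with vector. The mature values of KLF2 replicate 1 rest on 2 cells.

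Genes of plasmacytoid dendritic cells, a related type that makes type I interferon and can pass the rule through Flt3, were uneven among the libraries. Over 12 markers the rich cells had 314 and 2391 CPM in the KLF2 libraries, against 854 CPM in the vector library, and 6 markers, Siglech among them, were at 0 in KLF2 replicate 1. Siglech, a defining receptor of the type, had 0 and 282 CPM in the KLF2 libraries, against 94.7 CPM in the vector library. By a count chosen after seeing the data, cells with UMIs of at least 3 of 8 such genes numbered 1 of 30 and 8 of 69 gated cells in the KLF2 libraries, against 5 of 176 in the vector library, and 0 of 15 and 7 of 43 rich cells in the KLF2 libraries, against 4 of 132 in the vector library. The 7 rich cells of KLF2 replicate 2 included 2 of its 22 rich cDC1 and 2 of its 4 rich cDC2.

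**Figure D3:**
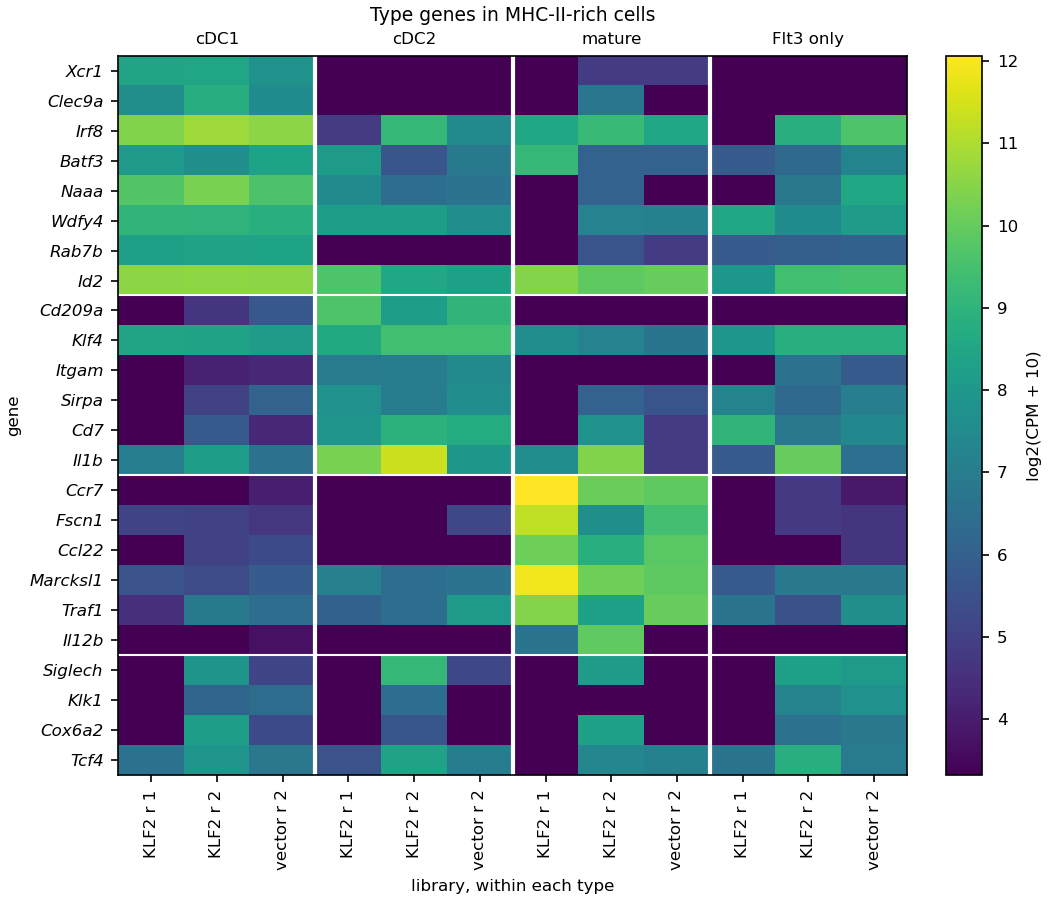
Level of type genes as log2(CPM + 10) in MHC-II-rich cells, summed per type and library, with genes in rows in blocks and the types in columns, each with KLF2 replicates 1 and 2 left of vector replicate 2. Irf8, Naaa, Rab7b and Id2 are high in the 3 cDC1 columns, and Ccr7, Ccl22 and Marcksl1 in the 3 mature columns. Xcr1, Clec9a, Cd209a, Ccr7 and Fscn1 chose the types.

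The test of KLF2 against vector over all gated cells called many genes. Of 10090 genes tested with the edgeR quasi-likelihood test, 1068 (10.6%) rose and 1038 (10.3%) fell at an adjusted p under 0.05, 20.9% in all. The median log2 fold change of all genes was 0.15. Only the pair of KLF2 libraries gives a spread (1 residual degree of freedom), which the test also applies to the lone vector library. When the 5% of cells with the most UMIs were left out of each library, which left 23 and 63 gated cells in the KLF2 libraries and 154 in the vector library, the number called was 0, with 1609 at an unadjusted p under 0.05 and 3145 in the fit of all gated cells. DESeq2 called 564 in all gated cells. The rich cells are part of the gate, with 21.2% and 30.8% of its UMIs in the KLF2 libraries and 76.6% in the vector library. Signs shared between the gate and its rich cells are therefore partly built in, and their share among genes not called was not computed. Because the poor cells hold most UMIs of the gate in the KLF2 libraries, each group of genes is set beside its level in rich cells. There a gene with a mean of at least 30 CPM was counted when it was at least 2-fold apart from vector in both KLF2 libraries, with values under 18.1 CPM set to 18.1. Of 4064 such genes, 214 (5.27%) were higher and 159 (3.91%) lower by that measure, which has no test. Of the 2106 genes called in the gate, 892 had that level in rich cells, 648 had the sign of the call in both KLF2 libraries there, and 235 were also 2-fold apart.

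**Figure D4:**
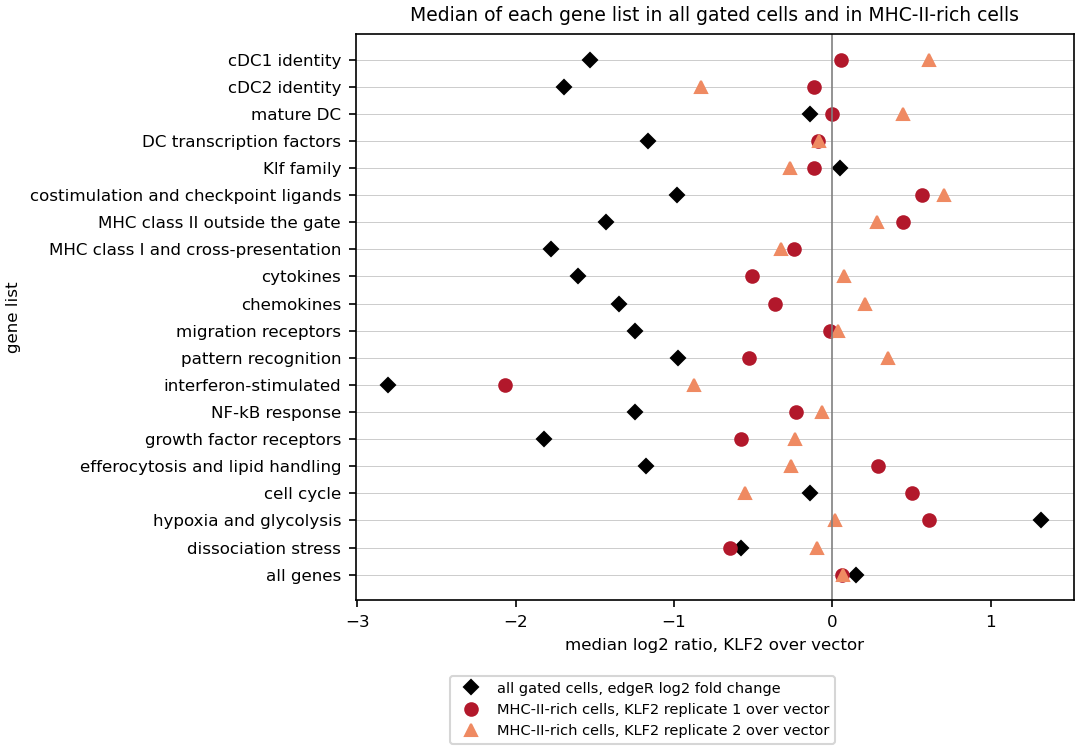
Median log2 ratio of KLF2 over vector for each gene list with values in rich cells: black diamonds give the edgeR fold changes over all gated cells, circles and triangles the ratios of KLF2 replicate 1 and KLF2 replicate 2 in MHC-II-rich cells, over genes with at least 30 CPM. Most lists lie below 0 as diamonds and nearer to 0 in rich cells. Interferon-stimulated genes are lowest of the lists shown at -2.80, -2.07 and -0.87.

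Genes of cDC1 identity were lower in the gate of the KLF2 libraries and nearer to the vector library in rich cells. Of 20 tested members of the cDC1 list, 10 fell, among them Irf8 (log2 fold change -1.99 ± 0.43 (SE), adjusted p = 6.8e-05) and Naaa (log2 fold change -1.65 ± 0.45 (SE), adjusted p = 0.0023), and 1 rose. The riser was Cd24a (log2 fold change 1.86 ± 0.51 (SE), adjusted p = 0.0026), which epithelial cells also express. The list's median was -1.53 in the gate, against 0.15 over all genes. In rich cells 20 members had at least 30 CPM, their median log2 ratios to vector were 0.06 and 0.61 in the KLF2 libraries, and Cxcl9 alone was 2-fold apart in both KLF2 libraries. Irf8 had 682 and 1128 CPM in the KLF2 libraries, against 1015 CPM in the vector library. Id2, a factor that cDC1 need, had 1092 and 1113 CPM in the KLF2 libraries, against 1078 CPM in the vector library. Wdfy4, which cDC1 need to cross-present, had 386 and 338 CPM in the KLF2 libraries, against 333 CPM in the vector library. Naaa had 459 and 665 CPM in the KLF2 libraries, against 509.9 CPM in the vector library. In Irf8 and Naaa the vector value was the middle of the 3, and in Id2 and Wdfy4 it was the lowest by a small margin.

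The genes that define the type for the rule, given as a description, were also present in rich cDC1 of both groups. Xcr1 had 338 and 349 CPM with KLF2, against 216 CPM with vector, in these cells. Clec9a had 188 and 424 CPM with KLF2, against 174 CPM with vector. Both genes had a UMI in 4 of 9 and 13 of 24 cDC1 of the gate in the KLF2 libraries and in 11 of 73 of the vector library, at median depths of 15847 and 6762.5 UMIs in the KLF2 libraries and 5747 in the vector library. Batf3, the partner of Irf8, had 250.5 and 197 CPM with KLF2, against 323 CPM with vector. Flt3, the receptor of the lineage's growth factor, had over all rich cells 109 and 188 CPM in the KLF2 libraries, against 235 CPM in the vector library. Batf3 and Flt3 were highest in the vector library, whereas Xcr1 was highest in the KLF2 libraries.

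Most genes of cDC2 identity fell in the gate, and they varied between the KLF2 libraries in rich cells. Of 15 tested, 11 fell and 0 rose, with a median of -1.69. Sirpa, the receptor for Cd47, fell (log2 fold change -1.47 ± 0.52 (SE), adjusted p = 0.028), and so did Clec10a, a galactose lectin (log2 fold change -3.13 ± 0.72 (SE), adjusted p = 1.8e-04). In rich cells 13 of them had at least 30 CPM, and 0 were 2-fold apart in both KLF2 libraries in the same direction. Cd209a had 259 and 33.8 CPM in the KLF2 libraries, against 83.7 CPM in the vector library, which is above the vector library in KLF2 replicate 1 and below it in KLF2 replicate 2. Klf4, a paralogue of Klf2 that cDC2 need, had 332 and 346 CPM in the KLF2 libraries, against 359.9 CPM in the vector library. Cd7 had 139 and 132 CPM in the KLF2 libraries, against 104 CPM in the vector library.

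Genes of the mature state did not move in 1 direction. Of 27 tested in the gate, 2 rose and 7 fell, with a median of -0.14. The fallen genes included Ccl22 (log2 fold change -1.85 ± 0.53 (SE), adjusted p = 0.0043), which attracts regulatory T cells, and the NF-kB subunits Relb (log2 fold change -1.96 ± 0.53 (SE), adjusted p = 0.0021) and Nfkb2 (log2 fold change -2.91 ± 0.54 (SE), adjusted p = 2.2e-06). The risen genes were Il12b, a subunit of interleukin 12 and 23, and Bcl2l14. Il12b had 2 and 52 UMIs in the KLF2 libraries, against 1 in the vector library, and 39 of those of KLF2 replicate 2 lay in 1 rich cell. In rich cells Ccl22 had 72.4 and 97.7 CPM in the KLF2 libraries, against 93.1 CPM in the vector library. Ccr7 had 278 and 211 CPM in the KLF2 libraries, against 83.7 CPM in the vector library, and without the highest cell of each library 79.8 and 133 CPM in the KLF2 libraries, against 63.9 CPM in the vector library. Of the 46 Ccr7 UMIs in rich cells of KLF2 replicate 1, 33 lay in 1 cell. Samsn1, an adaptor of lymphocytes and myeloid cells, had 181 and 143 CPM in the KLF2 libraries, against 33.2 CPM in the vector library, and Nfkb2 had 30.2 and 41.4 CPM in the KLF2 libraries, against 96.3 CPM in the vector library. In KLF2 replicate 1, 24 Samsn1 UMIs lay in its 2 rich mature cells and 6 in its rich cDC2, with 0 in rich cDC1 and Flt3-only cells. Ccr7 and Samsn1 were the 2 of 17 members at least 2-fold higher in both KLF2 libraries, and Nfkb2 the 1 lower.

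The transcription factors of the lineage showed the same contrast between the gate and its rich cells. Of 19 tested, 9 fell and 2 rose (median -1.16), and in rich cells 0 of 18 were 2-fold apart in both KLF2 libraries. Spi1, which encodes PU.1, fell in the gate (log2 fold change -1.95 ± 0.46 (SE), adjusted p = 2.5e-04) and had 531 and 267 CPM in the KLF2 libraries, against 431 CPM in the vector library, in rich cells. Tcf4, which plasmacytoid dendritic cells need and other cells also express, rose in the gate (log2 fold change 1.52 ± 0.49 (SE), adjusted p = 0.013), and had 509.8 and 907 CPM with KLF2, against 459.7 CPM with vector, in poor cells and 66.4 and 267 CPM in the KLF2 libraries, against 107 CPM in the vector library, in rich cells. Nfil3 was the other that rose (log2 fold change 2.39 ± 0.73 (SE), adjusted p = 0.0082).

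Klf2 did not pass the test in the gate, with 255 and 545 CPM with KLF2, against 486 CPM with vector (log2 fold change -0.48 ± 0.45 (SE), adjusted p = 0.52). In rich cells it had 459 and 744 CPM in the KLF2 libraries, against 488 CPM in the vector library, a ratio to vector of 0.940 (95% interval 0.721 to 1.21) in KLF2 replicate 1 and 1.53 (95% interval 1.27 to 1.83) in KLF2 replicate 2. These intervals cover counting error only. Of 9 Klf genes tested, 1 rose in the gate and 0 fell. It was Klf9 (log2 fold change 2.68 ± 0.61 (SE), adjusted p = 1.8e-04), which had 24.1 and 37.6 CPM in the KLF2 libraries, against 9.47 CPM in the vector library, in rich cells. Klf6 had 633 and 511 CPM in the KLF2 libraries, against 710.4 CPM in the vector library, in rich cells, and Klf13 127 and 86.5 CPM in the KLF2 libraries, against 104 CPM in the vector library. None of the 7 members with at least 30 CPM was 2-fold apart in both KLF2 libraries.

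Of 15 genes of MHC class II presentation that the rule did not read, 8 fell in the gate and 0 rose (median -1.43). H2-Eb1, a beta chain, fell by 1.58 ± 0.37 (log2, SE, adjusted p = 2.1e-04), and in rich cells it had 6733 and 8199 CPM in the KLF2 libraries, against 6103 CPM in the vector library. H2-DMa, which loads peptides, had 941 and 665 CPM in the KLF2 libraries, against 579 CPM in the vector library, in rich cells. Ciita, the activator of the class II genes, had 284 and 173 CPM in the KLF2 libraries, against 299.9 CPM in the vector library. Ifi30, a thiol reductase that unfolds antigens, had 1774 and 1128 CPM in the KLF2 libraries, against 1028 CPM in the vector library. Of 12 members at 30 CPM, 0 were 2-fold apart in both KLF2 libraries. The rich cells were chosen by class II transcripts, so similar class II levels among them are in part a result of that choice. In C1q-positive macrophages, which were not chosen by class II, H2-Eb1 had 420.1 and 841 CPM with KLF2, against 5346 CPM with vector, and in T cells 12.1 and 106 CPM with KLF2, against 594 CPM with vector.

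Genes of MHC class I and cross-presentation fell widely in the gate: 16 of 22, with 0 risen and a median of -1.78. In rich cells their medians were -0.24 and -0.33 in the KLF2 libraries (log2 ratio to vector), against 0.06 and 0.07 over all genes, and 0 of 20 were 2-fold apart in both. B2m, the light chain, had 2811 and 2868 CPM in the KLF2 libraries, against 2497 CPM in the vector library. The heavy chain H2-K1 had 1032 and 1079 CPM in the KLF2 libraries, against 1495 CPM in the vector library. Tap1, which moves peptides into the endoplasmic reticulum, had 109 and 150.4 CPM in the KLF2 libraries, against 273 CPM in the vector library, with ratios to vector of 0.398 (95% interval 0.230 to 0.647) in KLF2 replicate 1 and 0.551 (95% interval 0.380 to 0.780) in KLF2 replicate 2. Tapbp, the loading chaperone tapasin, had 193 and 214 CPM in the KLF2 libraries, against 418 CPM in the vector library. Psmb8, a subunit of the immunoproteasome, had 1170.4 and 827 CPM in the KLF2 libraries, against 772 CPM in the vector library. Tap1, Tapbp and H2-K1 were lower in both KLF2 libraries than in the vector library, and B2m and Psmb8 were not.

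Interferon-stimulated genes had the lowest median of the lists with values in rich cells, and the lowest but for the mitochondrial genes in the gate. Of 19 tested in the gate, 15 fell and 0 rose, with a median of -2.80. In rich cells the median log2 ratio was -2.07 and -0.87 in the KLF2 libraries, and 4 of 11 members, Ifit1 and Irf1 among them, were at least 2-fold lower in both, with 0 higher. Ifit1 (chr19:34640871-34650009, plus strand, GRCm38), which binds viral RNA, had 0 and 15.0 CPM in the KLF2 libraries, against 229 CPM in the vector library, and fell in the gate by 5.70 ± 0.62 (log2, SE, adjusted p = 1.1e-17). Irf1, an activator of class I genes, had 48.3 and 67.7 CPM in the KLF2 libraries, against 205 CPM in the vector library. Isg15, a ubiquitin-like protein, had 115 and 327 CPM in the KLF2 libraries, against 548 CPM in the vector library. Its ratio was 0.209 (95% interval 0.124 to 0.332) in KLF2 replicate 1 and 0.597 (95% interval 0.466 to 0.757) in KLF2 replicate 2. Ifi27l2a had 422 and 229 CPM in the KLF2 libraries, against 262 CPM in the vector library, and so did not share the direction in KLF2 replicate 1. Ifit2, of the Ifit1 family, had 60.3 and 52.6 CPM in the KLF2 libraries, against 42.6 CPM in the vector library, so the direction was not shared by every member.

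The interferon-induced chemokines Cxcl9 and Cxcl10 were the 2 of 11 chemokines at least 2-fold lower in rich cells of both KLF2 libraries. Cxcl9 (chr5:92321347-92328079, minus strand) had 66.4 and 97.7 CPM in the KLF2 libraries, against 811 CPM in the vector library, ratios of 0.0818 (95% interval 0.0406 to 0.148) in KLF2 replicate 1 and 0.120 (95% interval 0.0779 to 0.179) in KLF2 replicate 2. A UMI of it was found in 2 of 15 and 5 of 43 rich cells of the KLF2 libraries, against 47 of 132 of the vector library. Without the highest cell of each library it had 31.3 and 35.3 CPM in the KLF2 libraries, against 648 CPM in the vector library. By type, Cxcl9 had 138 and 45.5 CPM with KLF2, against 788 CPM with vector, in rich cDC1, and 0 and 387 CPM with KLF2, against 2419 CPM with vector, in rich mature cells. Cxcl10 had 12.1 and 48.9 CPM in the KLF2 libraries, against 240.0 CPM in the vector library, and 78 of the 152 vector UMIs lay in 1 cell. Both fell in the gate, Cxcl9 by 5.22 ± 0.50 and Cxcl10 by 4.34 ± 0.54 (log2, SE), at adjusted p of 1.3e-22 and 1.6e-13.

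Cxcl9 was also low in other cells of the KLF2 libraries. In C1q-positive macrophages Cxcl9 had 19.9 and 39.7 CPM with KLF2, against 1244 CPM with vector, and in T cells 2.42 and 6.88 CPM with KLF2, against 138 CPM with vector. Cxcl10 differed in T cells, with 41.2 and 141 CPM with KLF2, against 64.8 CPM with vector. Cxcl9 was therefore lower in all 3 populations of the KLF2 libraries, while Cxcl10 in T cells of KLF2 replicate 2 was above the vector library. The part of free RNA in the levels of rich cells was not tested.

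**Figure D5:**
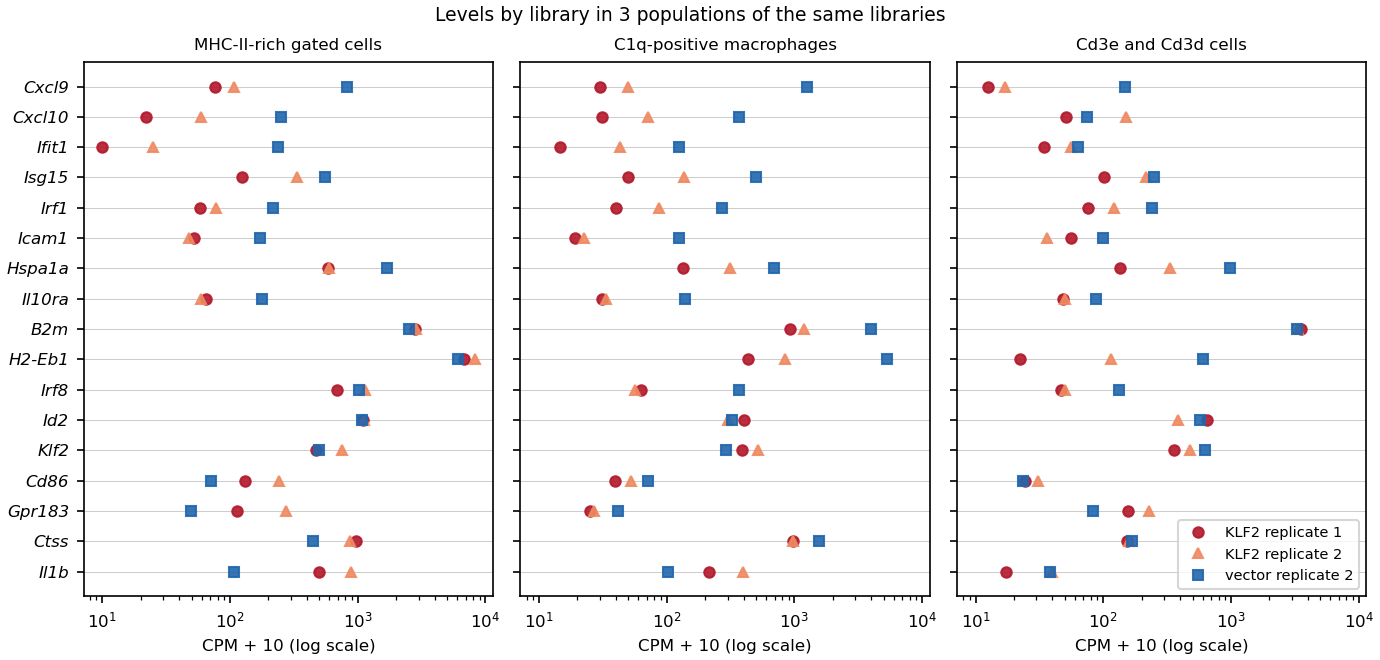
CPM + 10 (log scale) of selected genes in MHC-II-rich gated cells (left), C1q-positive macrophages (middle) and cells with Cd3e and Cd3d (right), 1 point per library. Cxcl9 and Irf1 are lower in the KLF2 libraries in the 3 panels, B2m is about equal in rich cells and T cells but lower with KLF2 in macrophages, and Il1b is higher with KLF2 in rich cells and macrophages but not in T cells.

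Among the other chemokines, Ccl4 and Ccl17 lay on either side of the vector library in the KLF2 libraries. Ccl4, an inflammatory chemokine, had 338 and 1962 CPM in the KLF2 libraries, against 851 CPM in the vector library. Ccl17, a ligand of Ccr4, had 12.1 and 286 CPM in the KLF2 libraries, against 63.1 CPM in the vector library, where 27 of the 76 UMIs of KLF2 replicate 2 and 38 of the 40 of the vector library lay in 1 cell each. Ccl5 had 947 and 601 CPM in the KLF2 libraries, against 467 CPM in the vector library, where 146 of 157 UMIs of KLF2 replicate 1 and 144 of 160 of KLF2 replicate 2 lay in 1 cell each. Cxcl16 had 175 and 180.4 CPM in the KLF2 libraries, against 156 CPM in the vector library. Cxcl1 and Cxcl2, ligands of the neutrophil receptor Cxcr2, rose in the gate on few UMIs: Cxcl2 had 13.4 and 57.4 CPM with KLF2, against 1.28 CPM with vector. In the gate 2 of 13 chemokines rose and 7 fell, with a median of -1.35, and 0 of 11 were at least 2-fold higher in rich cells of both KLF2 libraries.

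Il1b, the inflammatory cytokine interleukin 1 beta, was the cytokine at least 2-fold higher in rich cells of both KLF2 libraries, 1 of 6 with at least 30 CPM. It had 489 and 879.7 CPM in the KLF2 libraries, against 97.9 CPM in the vector library (chr2:129364570-129371139, minus strand). The ratios were 4.99 (95% interval 3.54 to 7.07) in KLF2 replicate 1 and 8.99 (95% interval 6.77 to 12.1) in KLF2 replicate 2. A UMI was found in 9 of 15 and 18 of 43 rich cells of the KLF2 libraries, against 19 of 132 of the vector library. Without the highest cell of each library it had 184 and 693 CPM in the KLF2 libraries, against 74.7 CPM in the vector library. Rich cDC2 had 1266 and 2688 CPM with KLF2, against 236 CPM with vector, and rich cDC1 125 and 288 CPM with KLF2, against 87.2 CPM with vector. The 1266 CPM of KLF2 replicate 1 came from 68 UMIs in 5 rich cDC2. Its rich cDC1, mature and Flt3-only cells held 10, 2 and 1. The highest cell of that library, without which its rich cells fell from 489 to 184 CPM, was therefore a cDC2 and held most of the 68 UMIs. Of the 4 rich cDC2 of KLF2 replicate 2, 2 carried plasmacytoid genes. In the gate as a whole the difference did not pass the test (log2 fold change 1.04 ± 0.51 (SE), adjusted p = 0.14). Macrophages had 206 and 384 CPM with KLF2, against 93.3 CPM with vector, and T cells 7.27 and 29.8 CPM with KLF2, against 28.4 CPM with vector. The KLF2 libraries were thus above the vector library in rich cells and macrophages, and not in T cells.

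Of 9 cytokines tested in the gate, 2 rose (Il12b and Il18) and 3 fell (Tnf, Tgfb1 and Il16), with a median of -1.61. Tnf, tumour necrosis factor, had 0 and 56.4 CPM in the KLF2 libraries, against 80.5 CPM in the vector library, in rich cells. Tgfb1, which dampens T cells, had 90.5 and 22.6 CPM in the KLF2 libraries, against 128 CPM in the vector library. Tgfb1 was lower in both KLF2 libraries, and by less than 2-fold in KLF2 replicate 1.

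Costimulatory and checkpoint genes had medians above 0 in rich cells, at 0.56 and 0.70 (log2) in the KLF2 libraries over 10 members, against 0.06 and 0.07 over all genes. Cd86, which costimulates T cells, had 121 and 233 CPM in the KLF2 libraries, against 61.6 CPM in the vector library. Cd83, a marker of activated cells, had 229 and 398 CPM in the KLF2 libraries, against 177 CPM in the vector library. Slamf7 had 181 and 244 CPM in the KLF2 libraries, against 123 CPM in the vector library. Havcr2, which encodes TIM-3, was the 1 of 10 at least 2-fold higher in both, with 72.4 and 75.2 CPM in the KLF2 libraries, against 30.0 CPM in the vector library. Cd40, the receptor through which T cells license dendritic cells, went the other way, with 0 and 15.0 CPM in the KLF2 libraries, against 58.4 CPM in the vector library, on 0 and 4 UMIs with KLF2 and 37 with vector. In the gate 0 of 15 rose and 4 fell, Cd40, Icosl, Lgals9 and Cd200, with a median of -0.98. In T cells Cd86 had 14.5 and 20.6 CPM with KLF2, against 13.6 CPM with vector, and in macrophages 29.3 and 42.4 CPM with KLF2, against 61.5 CPM with vector.

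Genes of adhesion and migration fell in the gate in 8 of 18 cases, with 0 risen and a median of -1.25. In rich cells 2 of 14 were at least 2-fold higher in both KLF2 libraries, Ccr7 and Gpr183, and 1 lower, Cxcr4. Gpr183, an oxysterol receptor that places dendritic cells in the spleen, had 103 and 263 CPM in the KLF2 libraries, against 39.5 CPM in the vector library. It had 145 and 217 CPM with KLF2, against 73.3 CPM with vector, in T cells. Cxcr4 had 6.03 and 30.1 CPM in the KLF2 libraries, against 78.9 CPM in the vector library. Itgb7, an integrin chain, had 139 and 158 CPM in the KLF2 libraries, against 242 CPM in the vector library. Ccr2, which brings precursors out of the marrow, had 187 and 165 CPM in the KLF2 libraries, against 147 CPM in the vector library.

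Pattern recognition genes rose in 1 case (Cd14) and fell in 5 of 13 in the gate (median -0.98), and 0 of 7 were 2-fold apart in rich cells. Unc93b1, which escorts the endosomal Toll-like receptors, had 284 and 335 CPM in the KLF2 libraries, against 265 CPM in the vector library, and Clec12a, a receptor for uric acid crystals, 60.3 and 139 CPM in the KLF2 libraries, against 86.8 CPM in the vector library. Of 15 NF-kB response genes 1 rose (Ier3) and 7 fell in the gate (median -1.25), and in rich cells Nfkb2 and Icam1 were 2-fold lower in both, 2 of 14. Icam1, an adhesion molecule for T cells, had 42.2 and 37.6 CPM in the KLF2 libraries, against 163 CPM in the vector library, ratios of 0.260 (95% interval 0.102 to 0.555) in KLF2 replicate 1 and 0.231 (95% interval 0.108 to 0.443) in KLF2 replicate 2. In macrophages Icam1 had 9.15 and 12.5 CPM with KLF2, against 114 CPM with vector, and in T cells 46.0 and 26.4 CPM with KLF2, against 89.7 CPM with vector, so the direction was shared.

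Receptors for growth factors and cytokines fell in 9 of 12 cases in the gate, with 0 risen and a median of -1.82. In rich cells Il10ra, through which interleukin 10 restrains dendritic cells, was the 1 of 10 at least 2-fold lower in both KLF2 libraries, with 54.3 and 48.9 CPM in the KLF2 libraries, against 167 CPM in the vector library. Ifngr1, a chain of the interferon gamma receptor, had 151 and 165 CPM in the KLF2 libraries, against 115 CPM in the vector library, and Ifnar2, of the interferon alpha receptor, 103 and 109 CPM in the KLF2 libraries, against 106 CPM in the vector library. Among 12 genes of lipid handling 1 rose (Abca1) and 4 fell in the gate (median -1.18). Fabp4, a fatty acid carrier of fat and endothelium, had 0 and 15.0 CPM in the KLF2 libraries, against 557 CPM in the vector library, in rich cells, and 4.85 and 16.1 CPM with KLF2, against 935 CPM with vector, in T cells. Spp1, the 1 of 7 at least 2-fold higher in rich cells of both KLF2 libraries, had 42.2 and 132 CPM in the KLF2 libraries, against 18.9 CPM in the vector library, and 31.5 and 209.9 CPM with KLF2, against 80.0 CPM with vector, in T cells.

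Cell cycle genes did not move as a group, with 1 risen (Ccnb1) and 1 fallen (Mcm3) of 18 in the gate and a median of -0.14. Top2a, of dividing cells, had 199 and 56.4 CPM in the KLF2 libraries, against 137 CPM in the vector library, in rich cells, above the vector library in KLF2 replicate 1 and below it in KLF2 replicate 2. Hypoxia and glycolysis genes rose in 10 of 18 cases in the gate and fell in 1, the only list with a median above 1, at 1.32. In rich cells 0 of 12 were 2-fold apart in both. Pgk1, a glycolytic kinase, had 928 and 595 CPM with KLF2, against 144 CPM with vector, in poor cells and 205 and 244 CPM in the KLF2 libraries, against 129 CPM in the vector library, in rich cells. Bnip3, induced by low oxygen, had 308 and 257 CPM with KLF2, against 0 CPM with vector, in poor cells and 24.1 and 26.3 CPM in the KLF2 libraries, against 12.6 CPM in the vector library, in rich cells. Both genes had their high values in the poor cells of the KLF2 libraries.

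Of 18 genes that tissue dissociation induces, 5 were at least 2-fold lower in rich cells of both KLF2 libraries, Egr1, Hsp90aa1, Hspa1a, Hspa1b and Dnajb1, and 0 higher. In the gate 1 rose and 3 fell, with a median of -0.58. Hspa1a, an inducible HSP70, had 579 and 583 CPM in the KLF2 libraries, against 1695 CPM in the vector library, and in T cells 126 and 321 CPM with KLF2, against 972 CPM with vector. Jun had 1327 and 2556 CPM in the KLF2 libraries, against 3004 CPM in the vector library. Atf3 went the other way and rose in the gate (log2 fold change 1.42 ± 0.46 (SE), adjusted p = 0.015). All 13 mitochondrially encoded genes fell in the gate, with a median of -5.32. Mitochondrial genes took 0.331% and 0.408% of the gated cells' UMIs in the KLF2 libraries, against 9.05% in the vector library, in the direction of the whole libraries.

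Among the largest changes by the rule for named genes, the 12 rises of the gate all had 0 UMIs in the vector library. They were Wif1, Pycr1, Mt3, S100a14, Apcdd1, Prox1, Bex1, Krt19, Prss56, Crym, Tesc and Robo1. Wif1, an inhibitor of Wnt ligands, had 434 and 715 CPM with KLF2, against 0 CPM with vector, in the gate, 96.5 and 113 CPM in the KLF2 libraries, against 0 CPM in the vector library, in rich cells, and 866 and 607 CPM with KLF2, against 0.0876 CPM with vector, in kept cells without Ptprc. Krt19, a biliary keratin, had 375 and 97.8 CPM with KLF2, against 0 CPM with vector, in the gate and 24.1 and 71.4 CPM in the KLF2 libraries, against 0 CPM in the vector library, in rich cells. The 12 deepest falls were Fabp1, Fabp4, Rnasek, Ly6c1, Mgll, Ctla2a, Col4a1, Ets1, Ifit1, Col4a2, Pecam1 and Fbln2, several of them genes of hepatocytes or endothelium. Fabp1, the fatty acid carrier of hepatocytes, had 0 and 0 CPM in the KLF2 libraries, against 156 CPM in the vector library, in rich cells and 0 and 0 CPM with KLF2, against 366 CPM with vector, in T cells. Ifit1 was the interferon-stimulated gene among them.

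In rich cells the 12 genes farthest above vector by size, with no test, were Cdk8, Gphn, Zc3h7a, Il31ra, Ptn, Patl2, Kpna1, Filip1l, Jarid2, Nup210l, Pycr1 and Nkain2. Several were found in other cells of the same libraries too. Cdk8, a kinase of the Mediator complex, had 1997 and 3695 CPM in the KLF2 libraries, against 11.1 CPM in the vector library, in rich cells and 2016 and 4622 CPM with KLF2, against 28.2 CPM with vector, in T cells. Il31ra, a receptor of the interleukin 6 family, had 356 and 469.9 CPM in the KLF2 libraries, against 1.58 CPM in the vector library, in rich cells and 308 and 592 CPM with KLF2, against 0.128 CPM with vector, in T cells. Gphn, the scaffold gephyrin, had 688 and 1041 CPM in the KLF2 libraries, against 6.31 CPM in the vector library, in rich cells and 638 and 1365 CPM with KLF2, against 13 CPM with vector, in macrophages. The 12 farthest below were Fabp4, Igfbp3, Ifit1, Cxcl9, Rnasek, Gng10, Igfbp7, Fabp1, Ctla2a, Cxcl10, Col4a1 and Psme2b. Igfbp3, a carrier of insulin-like growth factors, had 0 and 0 CPM in the KLF2 libraries, against 303 CPM in the vector library, in rich cells and 9.69 and 12.6 CPM with KLF2, against 376 CPM with vector, in T cells. Gng10, a G protein subunit, had 24.1 and 22.6 CPM in the KLF2 libraries, against 223 CPM in the vector library, in rich cells and 2.42 and 3.44 CPM with KLF2, against 39.0 CPM with vector, in T cells. Psme2b had 60.3 and 15.0 CPM in the KLF2 libraries, against 243 CPM in the vector library, and it is a near copy of Psme2, so reads may have been split between them.

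The types of the gate were too small for a test, which needed 20 cells in each library: cDC1 numbered 9 and 24 in the KLF2 libraries and 73 in the vector library, and cDC2 5 and 4 in the KLF2 libraries and 16 in the vector library. By size alone, the 5 genes farthest above vector in cDC1 were Cdk8, Gphn, Ptn, Il31ra and Nkd1, and the 5 farthest below Igfbp3, Fabp4, Ccl5, Cxcl9 and Ctla2a. Cxcl9 had 71.8 and 35.3 CPM in cDC1 of the gate in the KLF2 libraries, against 737 CPM in the vector library. In cDC2 the 5 farthest above were Cdk8, Zc3h7a, Stmn1, Rgs1 and Gphn, and the 5 farthest below Ahnak, Isg15, Arhgap45, Neat1 and Fabp4. Rgs1, a brake on chemokine receptors, had 2402 and 1163 CPM in cDC2 of the KLF2 libraries, against 113 CPM in the vector library. Isg15 had 130.3 and 0 CPM in cDC2 of the KLF2 libraries, against 802 CPM in the vector library.

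Whether KLF2 and vector differed in another way in gated dendritic cells than in C1q-positive macrophages of the same libraries was tested as an interaction. The macrophages numbered 727 and 1989 in the KLF2 libraries and 434 in the vector library. The dendritic cell sums were those of the whole gate. MHC-II-poor cells held 78.8% and 69.2% of its UMIs in the KLF2 libraries, against 23.4% in the vector library, so the test does not compare rich cells with macrophages. Of 12542 genes tested, 0 (0%) passed an adjusted p under 0.05 with edgeR, 685 had an unadjusted p under 0.05, and DESeq2 called 7. With no filter on low counts edgeR called 98. No gene is named from these calls as particular to dendritic cells. The macrophages also held the epithelial keratin Krt8 at 222 and 623 CPM with KLF2, against 48.6 CPM with vector. The rule asked for class II transcripts in gated cells and not in macrophages, so an interaction of a class II gene such as H2-Eb1 is in part a result of that choice. H2-Eb1 had an interaction of 1.65 ± 0.25 (log2, SE, adjusted p = 0.13), Ifit1 of -3.11 ± 0.59 (adjusted p = 0.23) and Cxcl9 of 0.26 ± 0.35 (adjusted p = 1). The difference in Il1b was -0.60 ± 0.40 (adjusted p = 0.98).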

How the data were processed

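Single-cell RNA-seq counts (UMIs per gene and cell) were used as the authors deposited them, made with PISA 1.0 per the file headers and on GRCm38 per the submitters' processing notes; the labels' protocols name a DNBelab C Series kit. Whether strand was used in counting is not given in the sources used here. A cell was kept when it showed 300 or more genes and no more than 25% mitochondrial UMIs. No doublet caller was run; leaving out the 5% of cells with the most UMIs in each library is an alternative. UMIs of gated cells were summed per library and tested with edgeR 4.0.16 (TMM, filterByExpr, quasi-likelihood test, Benjamini-Hochberg over all genes tested), with SE taken as the absolute log2 fold change over the square root of F. DESeq2 1.42.0, R 4.3.3 and Python 3.11.15 served the alternatives and tables. The scripts were tested on simulated data.

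KLF2 replicates 1 and 2 were set against vector replicate 2, each from 1 mouse; of vector replicate 1, 10493 barcodes and 24505 gene names were present, and its expression was not analysed here. CPM leave out mitochondrial and haemoglobin genes, Gm42418, Gm26917, AY036118, Malat1, Cmss1 and Camk1d, a choice made after seeing the data. Intervals of shares are Wilson 95% intervals and ratios of sums carry 95% counting intervals; both cover counting error only. Positions are from GENCODE M21. Named genes were the 12 highest rises and 12 deepest falls past the test that averaged 30 CPM or more and were 2-fold or more apart in both KLF2 libraries, then from each of 20 lists the members that passed and those with the highest mean, up to 6 in all, and the genes of the rules; where no test was possible, size alone decided. Of other genes some were named after their values were seen. The members and lists were chosen with earlier results of these data known. MHC-II-rich cells were defined after seeing the data and carry no test.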

Additional observations from a re-analysis of the deposited data

How the results depend on the processing

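Of the fit over all gated cells, which called 2106 genes, settings that changed scaling, low-count filter, background genes or the minimum of genes called 2067 to 2233, and at most 10% mitochondrial UMIs called 1726. The number called was 564 with DESeq2 (all 564 shared), 1132 with equal cells per library, 894 without cells holding UMIs of other types, 207 with at least 2 UMIs of the dendritic cell genes (173 shared), 115 after thinning to 1000 UMIs (105 shared) and 0 without the 5% of cells with the most UMIs, where 1609 had an unadjusted p under 0.05. All of these but DESeq2 hold fewer cells or UMIs, but the number called did not follow the number of cells. Equal cells kept 30 in each library. The thinned setting chose cells by the rule after thinning but summed their full counts, so its fit did not make depth equal. Leaving out the 5% kept 23 and 63 gated cells in the KLF2 libraries and 154 in the vector library. The cause of these differences was not tested. The interaction called 98 genes with no filter on low counts and 7 with DESeq2, and 0 with size factors or without background genes (unadjusted 696 and 660). Leaving out either KLF2 library gave fold changes with no test, all 209 in the same direction. Many of the named genes were chosen because both KLF2 libraries agreed, so a turn of sign was unlikely from the start.

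The share of kept cells was 0.242% and 0.387% in the KLF2 libraries and 1.57% in the vector library for MHC-II-rich cells, 0.129%, 0.243% and 0.809% with at least 2 dendritic cell UMIs, 0.258%, 0.378% and 0.476% without cells holding UMIs of other types, a filter that is not even between the groups, and 0.129%, 0.189% and 0.750% after thinning. At most 10% mitochondrial UMIs gave 2.50% in the vector library. With 1 UMI of Ccr7 or Fscn1, mature cells were 53.3% and 39.1% of the gate in the KLF2 libraries and 18.8% in the vector library, and Flt3-only cells 10.0% and 26.1% in the KLF2 libraries. With Xcr1 or Clec9a read first, KLF2 replicate 2 had 47.8% cDC1 and 8.70% mature cells, and the vector library 5.11% mature cells. After thinning, KLF2 replicate 1 had 50% cDC1 and 12.5% mature cells, KLF2 replicate 2 66.7% cDC1, 9.52% mature and 19.0% Flt3-only cells, and the vector library 0% mature cells. In rich cells, KLF2 replicate 1 had 13.3% mature cells and KLF2 replicate 2 51.2% cDC1 and 23.3% Flt3-only cells.

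Signs of log2 fold changes turned as follows. In rich cells alone they became positive for B2m (0.19), Ccr2 (0.26), Cd209a (0.16), Cd7 (0.38), Clec12a (0.077), Ctsh (0.35), Cxcl16 (0.19), H2-DMa (0.45), H2-DMb1 (0.22), H2-DMb2 (0.037), H2-Eb1 (0.28), H2-Oa (0.47), Id2 (0.032), Ifi27l2a (0.25), Ifi30 (0.46), Ifngr1 (0.45), Itga4 (0.025), Lgals3 (0.067), Naaa (0.12), Psmb8 (0.35), Unc93b1 (0.22) and Wdfy4 (0.12). With at least 2 dendritic cell UMIs they did so for B2m (0.062), Ccl4 (0.67), Ccr2 (0.42), Clec12a (0.30), Cxcl16 (0.40), Ifi30 (0.042), Ifngr1 (0.28), Il4i1 (0.15), Lgals9 (0.047) and Zeb2 (0.48). Without cells holding UMIs of other types they did so for Ccl22 (0.40), Cd209a (0.34) and Zeb2 (1.26), and with equal cells for Ccl22 (1.21). In the full counts of cells that passed the rule after thinning they did so for B2m (0.043), Bcl11a (0.00039), Ccl22 (0.95), Ccr2 (0.085), H2-DMa (0.29), H2-Eb1 (0.21), Ifngr1 (0.49), Naaa (0.26), Psmb8 (0.33), Psmb9 (0.070) and Wdfy4 (0.56). The cause was not tested. No paired analysis was possible because the libraries with a matrix share only number 2 between the groups. Tests within cDC1 and cDC2, and their alternatives, were not run, since at least 1 library held fewer than 20 cells of each type. With 1 vector library and 30 to 176 gated cells, the number of animals and the depth limit every comparison.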
